A study of Mus musculus with 12 samples.

Results

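The 9 complement genes described here were C1qa, C1qb, C1qc, C3, C3ar1, C5ar1, C6, C7 and Cfb, followed through the m6A peaks of mouse lung. m6A is N6-methyladenosine, a methyl mark on adenosines of RNA, and a peak is a stretch of transcript whose fragments were enriched by an m6A antibody (IP) over the same fragmented RNA without antibody (input). A peak was taken when the authors had assigned it to one of these genes or when it had been called on one of them, which gave 14 of the 27292 peaks of the OVA list and 11 of the 26102 peaks of the PBS list. The assigned gene comes from the annotation of the peak's position and the called gene from the peak caller, and the 2 need not be the same.

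Lungs came from 6 female BALB/c mice aged 6 to 8 weeks, 3 in each group, and each mouse gave 1 IP and 1 input library of total RNA depleted of ribosomal RNA. The OVA group received ovalbumin with aluminum hydroxide into the peritoneum on days 0 and 7 and inhaled nebulized 3% ovalbumin in PBS for 30 min a day on days 14 to 20, a model of acute allergic asthma. The PBS group received phosphate-buffered saline alone on the same days. The paper describes a test of airway responses to nebulized methacholine on day 21, and lungs were taken after it. Each group's replicates stand in a single list, called OVA lung and PBS lung in the following, so no difference between the lists has a replicate check and no test was made. The peaks carry no read counts, and the depth behind a single peak is therefore unknown. In whole lung, fewer cells of a type and less RNA per cell cannot be told apart, and a transcript without a peak may be unmethylated, too rare or absent.

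Complement is a chain of plasma and tissue proteins that marks microbes, dying cells and immune complexes. C1q, built from the chains of C1qa, C1qb and C1qc, starts the classical pathway by binding antibody on a surface, and factor B, the product of Cfb, gives the protease of the alternative pathway. Both pathways cleave C3. The fragments C3a and C5a act on the receptors encoded by C3ar1 and C5ar1, which draw in and activate leukocytes, while C6 and C7 join the membrane attack complex. Macrophages are a main source of C1q, and much of the plasma C3, factor B and C6 comes from the liver. The anaphylatoxins C3a and C5a are known for their part in allergic airway disease.

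Peaks called on the members were confined in both lists to the C1q genes and the anaphylatoxin receptors, apart from 1 OVA peak called on C6. Of the 9 genes, 5 had called peaks in both lists, namely C1qa, C1qb, C1qc, C3ar1 and C5ar1. This is 55.6% of them, close to the 49.9% of all RefSeq protein-coding genes with a called peak in both lists. C3, C7 and Cfb had no called peak in either list, and no exonic block of any peak lay inside the RefSeq span of these 3 genes or of C6. There were 11 called peaks in OVA lung and 9 in PBS lung. When assigned peaks were counted as well, 8 genes had a peak in OVA lung and 7 in PBS lung. By the same count, 57.3% of all RefSeq protein-coding genes had a peak in OVA lung and 55.8% in PBS lung. C7 alone among the members had none.

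The called and the assigned gene differed for 6 of the 14 OVA peaks and for 3 of the 11 PBS peaks. The genes differed for 22.5% of all OVA peaks and 22.8% of all PBS peaks, but a peak entered here through either of its genes, which favours peaks with differing genes, so nothing is read from this comparison. The members concerned were C3, C5ar1, C6 and Cfb.

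The genes of the C1q chains lie next to each other within 18719 bp of chromosome 4, from 136880126 to 136898844 on GRCm38. They carried 6 called peaks in OVA lung and 5 in PBS lung, all assigned to the gene on which they had been called. The peaks on C1qa and C1qb lay at almost the same places in both lists, while those on C1qc did not.

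C1qb had 1 peak, with identical coordinates in both lists. It spanned 136880129 to 136880687, was annotated as 3' UTR and covered 559 bp in a single block. Its fold enrichment of IP over input was 5.35 in OVA lung and 5.03 in PBS lung. Both values were close to the middle of their own list, at percentiles 48.4 and 47.0. The log10 of the p value differed far more, at -1240 in OVA lung and -94 in PBS lung.

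C1qa had 2 peaks in each list. The one at the 3' end, annotated as 3' UTR, ran from 136895917 to 136896184 in OVA lung, with a fold enrichment of 6.78 and a log10 p of -290. In PBS lung it ended slightly earlier, at 136896154, and had a fold enrichment of 4.85 and a log10 p of -17. The other peak, annotated as 5' UTR, had the same 3 blocks in both lists, from 136896600 to 136898803, with 357 exonic bp. Its fold enrichment was 4.41 in OVA lung, with a log10 p of -416, and 7.03 in PBS lung, with a log10 p of -37.2. The order of the C1qa peaks by fold enrichment was thus opposite. The 3' peak stood at percentile 56.7 of the OVA list against 41.6 for the 5' peak, whereas in PBS lung the 3' peak stood at 45.7 and the 5' peak at 59.1.

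C1qc had 3 peaks in OVA lung and 2 in PBS lung. All of them were assigned to a C1qc transcript classed as a processed transcript, not as protein-coding. The widest OVA peak had 2 blocks, from 136890457 to 136890599 and from 136891651 to 136891865, was annotated to exon 3 of 3, and had a fold enrichment of 7.44 and a log10 p of -52.9. At the same place the PBS list held a peak with the same first block and a second block cut back to 136891651 to 136891686, at a fold enrichment of 2.94 and a log10 p of -6.92. A separate PBS peak of 90 bp, from 136891746 to 136891835, had the higher fold enrichment of 12.8 and the weaker log10 p of -3.54. Both PBS peaks fell inside the blocks of the one OVA peak. The other OVA peaks had no counterpart. They lay in the 3' UTR at 136889804 to 136889923, with a fold enrichment of 2.49, and in exon 2 of 3 at 136892369 to 136892547, with a fold enrichment of 2.12, and these were among the lower values of the OVA list, at percentiles 18.8 and 12.4.

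The receptor genes carried 4 called peaks in each list and the highest fold enrichments among the OVA peaks called on members. C3ar1, which encodes the C3a receptor, had 2 OVA peaks and 3 PBS peaks on chromosome 6. The wider OVA peak ran without interruption from 122849410 to 122851173, a length of 1764 bp, with a fold enrichment of 18.3 at percentile 89.8 and a log10 p of -2090. In PBS lung this stretch was split into a peak of 479 bp, from 122849499 to 122849977, and one of 718 bp, from 122850366 to 122851083. Their fold enrichments were 12.1 and 10.9, at percentiles 79.0 and 75.1, and their log10 p values were -83 and -88.5. The wide peak and the first of the PBS pair were annotated as 3' UTR and the other as exon 2 of 2. A smaller 3' UTR peak ended at 122848752 in both lists. It started at 122848513 in OVA lung, with a fold enrichment of 4.34 and a log10 p of -73.9, and at 122848573 in PBS lung, with 2.96 and -2.95.

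C5ar1, which encodes the C5a receptor, had the smallest ratio between the lists in its lowest log10 p among the 5 genes. Its main peak on chromosome 7 started at 16247908 in both lists and ended at 16248744 in OVA lung and at 16248774 in PBS lung. The fold enrichment was 12.5 at percentile 78.4 in OVA lung, with a log10 p of -482, and 12.1 at percentile 79.0 in PBS lung, with a log10 p of -286. A further OVA peak, from 16247281 to 16247490, had a fold enrichment of 2.23 and no PBS counterpart. All these peaks lay within the RefSeq span of C5ar1 and were annotated as 3' UTR. The authors had assigned them to C5ar2, a neighbouring gene for a related C5a receptor, whose RefSeq span ended 3127 bp before the shorter OVA peak and 3754 bp before the main peak.

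**Figure D1:**
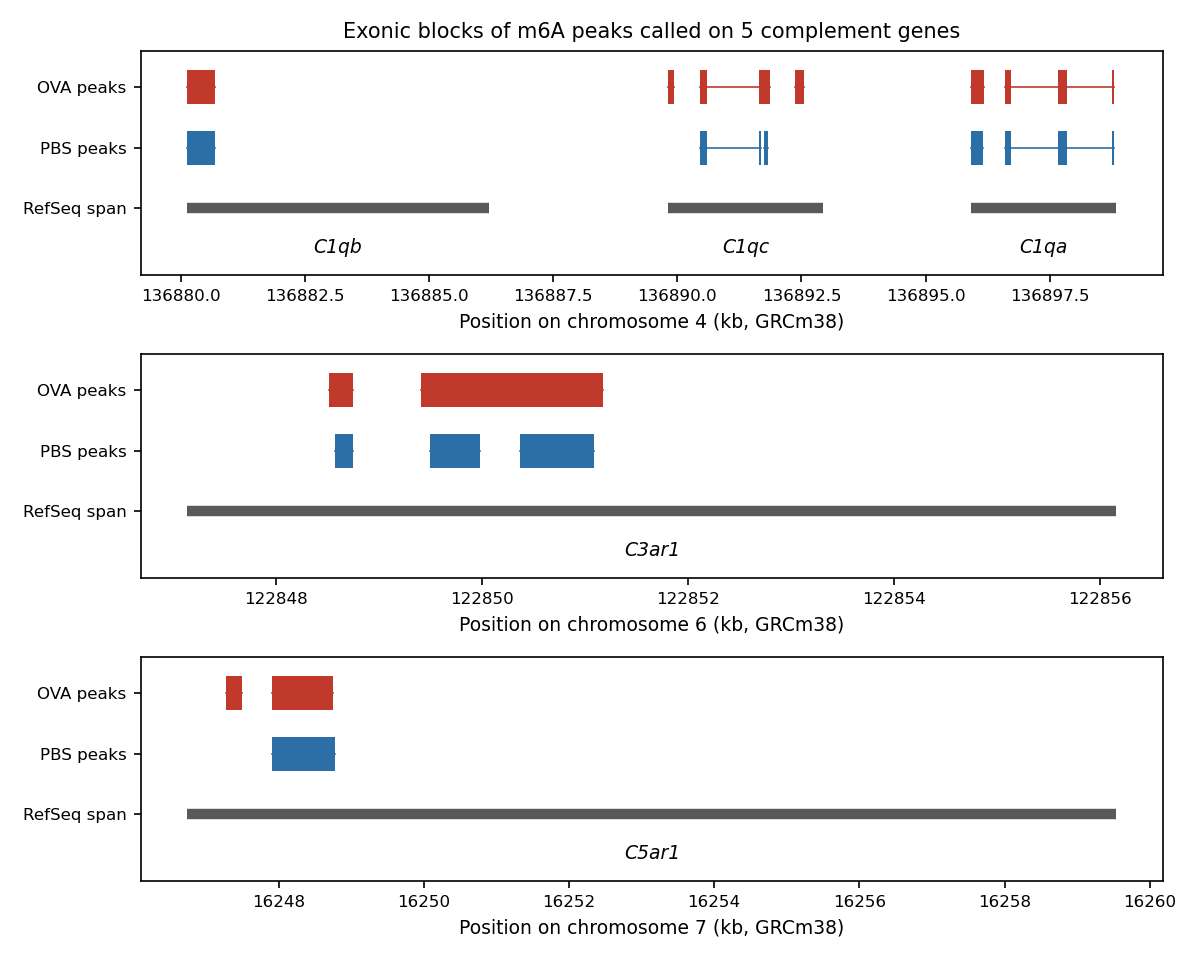
Exonic blocks of the peaks called on C1qb, C1qc and C1qa (top), C3ar1 (middle) and C5ar1 (bottom) in OVA lung (red) and PBS lung (blue), with the RefSeq span of each gene (grey), against position in kb on GRCm38. Thin lines join the blocks of a peak. The 1764 bp OVA peak on C3ar1 faces 2 PBS peaks of 479 and 718 bp, and 2 OVA peaks on C1qc and 1 on C5ar1 face none.

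Complement C6, a part of the membrane attack complex, was the only other member with a called peak. It stood in OVA lung alone, at 4814788 to 4814937 on chromosome 15, with a fold enrichment of 6.93 and a log10 p of -3.27. Its start lay 10743 bp beyond the end of the RefSeq span of C6, it overlapped no RefSeq gene, and the authors had assigned it to the pseudogene Gm49074. A second peak bore the name of C6 by assignment, although its position was 152081 bp away in OVA lung and 152140 bp in PBS lung. That peak had been called on Plcxd3, which encodes a phospholipase C-like protein, and lay inside the RefSeq span of that gene. It ran from 4574807 to 4574986 in OVA lung, with a fold enrichment of 18.0 and a log10 p of -5.18, and from 4574837 to 4574927 in PBS lung, with 2.96 and -3.79. Neither peak thus lay on the RefSeq span of C6.

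The same held for Cfb and C3. The peaks assigned to Cfb had been called on C2, which encodes a protease of the classical pathway and is the neighbour of Cfb. They began at 34862604 on chromosome 17, 90 bp beyond the end of the RefSeq span of Cfb and inside that of C2, and ended at 34863227 in OVA lung and 34863198 in PBS lung. Their fold enrichment was 6.20 in OVA lung, with a log10 p of -118, and 5.16 in PBS lung, with a log10 p of -85.5. This place was annotated as 3' UTR, while its far end lay 709 bp in OVA lung and 680 bp in PBS lung before the assigned start of Cfb. The peak assigned to C3, the central component of the cascade, stood in OVA lung alone, at 57234903 to 57235052 on chromosome 17. It had been called on Gpr108, lay 6767 bp beyond the end of the RefSeq span of C3, and had a fold enrichment of 2.91 and a log10 p of -3.85. The RefSeq spans of Gpr108 and Trip10 both overlap it.

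**Figure D2:**
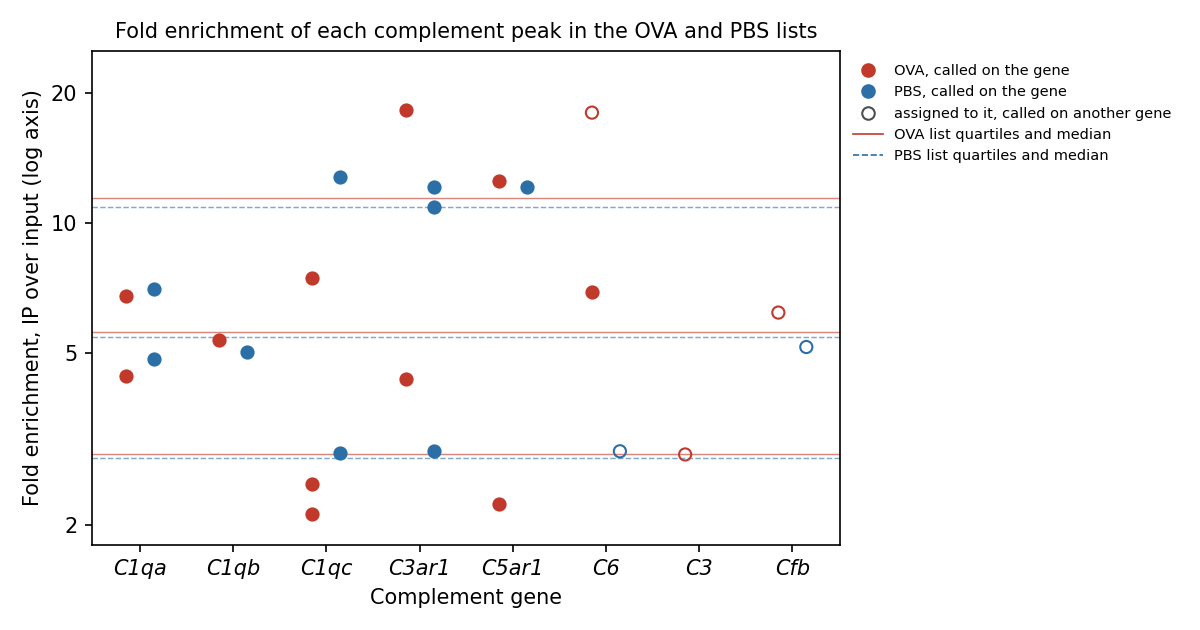
Fold enrichment of IP over input (log axis) of each complement peak in OVA lung (red) and PBS lung (blue), by gene. Filled points are peaks called on the gene, open points are peaks assigned to it and called on another gene, and lines give the lower quartile, median and upper quartile of all peaks of the OVA list (solid) and the PBS list (dashed). The highest called point of the OVA list is C3ar1 at 18.3 and that of the PBS list is C1qc at 12.8.

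The called peaks were spread over the range of fold enrichments of each list. Their median was 5.35 in OVA lung and 7.03 in PBS lung, beside 5.59 and 5.44 over all peaks of the lists. By the authors' annotation, 8 of the 11 called OVA peaks and 5 of the 9 called PBS peaks were in a 3' UTR, where 52.7% of all peaks of either list were found. C1qa had the only called peak in a 5' UTR in each list. All 14 OVA and all 11 PBS complement peaks passed an FDR of 0.05, as did 98.1% of all OVA and 97.8% of all PBS peaks. None was enriched less than 2 times, and 89.9% of all OVA and 89.4% of all PBS peaks met this bound as well.

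By an overlap of at least 1 bp, peaks without a counterpart were found among the complement peaks of the OVA list only. Of the 14 OVA peaks, 5 shared no exonic base with a PBS peak, a share of 35.7%, while 19.4% of all OVA peaks had no overlapping PBS peak. They were 2 peaks on C1qc, 1 on C5ar1, the peak called on C6 and the peak assigned to C3. Of the 11 PBS peaks, 0 were without an overlapping OVA peak, against 14.5% of all PBS peaks. When 50% of both peaks had to overlap, 6 OVA and 3 PBS peaks had no counterpart, as had 31.4% of all OVA and 28.3% of all PBS peaks. With identical positions required, 12 and 9 had none, as had 89.7% and 89.3% of all peaks. With so few peaks and a single list per group, these counts are given as a description. The 5 OVA peaks had a median fold enrichment of 2.49, compared with 6.78 for the 9 others, and peaks without a counterpart were also the weaker ones over the whole OVA list, at a median of 2.87 against 6.50.

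The length covered by called peaks was greater in OVA lung for 4 of the 5 genes called in both lists. C1qc had 657 exonic bp in OVA lung and 269 in PBS lung. C3ar1 had 2004 and 1377 bp, C5ar1 had 1047 and 867 bp, and C1qa had 625 and 595 bp. C1qb was the exception, with 559 bp in both. Over all genes called in both lists, 55.7% had the greater covered length in OVA lung.

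The lowest log10 p of a gene was far further from 0 in OVA lung for C3ar1 and the C1q genes. As a ratio of the OVA value over the PBS value it was 23.6 for C3ar1, 13.2 for C1qb, 11.2 for C1qa and 7.64 for C1qc. For C5ar1 it was 1.69. The median ratio was 1.15 over the 12199 genes with a symbol, called in both lists, that were left after 52 with a p value too small to be written were set aside, with quartiles of 0.819 and 1.66. C3ar1, C1qb, C1qa and C1qc thus stood at percentiles 99.5, 98.9, 98.6 and 97.8 of these genes and C5ar1 at 75.7. This ratio was looked at after the values had been seen, and a p value depends on the number of reads in a peak as well as on its enrichment, which the lists do not separate.

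Macrophages and monocytes are among the cells known to make C1q and both receptors, so their marker genes are set beside these values. Of 6 such markers, Csf1r, Mrc1 and Cd14 had called peaks in both lists and Adgre1, Cd68 and Marco in neither. The ratio of the lowest log10 p was 7.76 for Mrc1, 3.64 for Cd14 and 1.04 for Csf1r. The part of these cells in the complement values was not tested. Among the markers of lung epithelium, 6 of 7 had peaks in each list, all but Sftpc, with ratios from 0.682 for Scgb1a1 to 3.21 for Sftpd. The 3 endothelial markers Pecam1, Cdh5 and Kdr had peaks in both, with ratios of 0.788, 0.604 and 0.472. Of 6 granulocyte markers, S100a8 and S100a9 had a peak in PBS lung only and the other 4 had none. None of 5 hepatocyte markers had a peak, and a gene without a peak may still be expressed.

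The rest of the complement system was represented by 48 genes. A peak was called on or assigned to 31 of them in OVA lung, or 64.6%, and to 26 in PBS lung, or 54.2%. The shares over all protein-coding genes were the 57.3% and 55.8% given above. Called peaks alone gave 28 and 24 of the 48, or 58.3% and 50.0%, against 54.4% and 52.8% of all protein-coding genes. By role, the OVA and PBS lists had peaks for 6 and 5 of 8 genes of the classical pathway, 5 and 4 of 9 of the lectin pathway, 1 and 1 of 2 of the alternative pathway, 3 and 2 of 5 terminal components, 7 and 5 of 8 receptors, and 9 and 9 of 16 regulators. The peaks behind the alternative pathway gene, Cfp, which encodes properdin, had been called on Elk1. By either count, the complement genes were near the share of all genes.

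In both lists 24 of the 48 genes had a peak, or 50.0%, close to the 52.9% of all protein-coding genes. The highest fold enrichment of these genes in OVA lung was that of C1rb, which encodes a protease of the C1 complex, with 54.4 at 124580751 to 124581171 on chromosome 6 and 12.6 in PBS lung at 124580721 to 124581141. In PBS lung other genes had higher values, the highest being that of Masp1. The C1rb values stood at percentiles 99.5 and 80.5, and since C1rb has a close copy nearby, as C1s2, Cd59a and Cd59b do, reads may be shared between copies. Cr1l, a regulator of C3 cleavage at the cell surface, had 33.3 and 25.4. Cd93, a receptor on endothelial and myeloid cells once taken for a C1q receptor, had 22.4 and 23.1. Mbl1, a mannose-binding lectin, had 15.8 and 17.7, and Susd4, a regulator, had 11.7 and 16.3. Masp1, a protease of the lectin pathway, had 11.5 at percentile 75.2 of the OVA list and 29.6 at percentile 98.0 of the PBS list. Its log10 p was -57.8 for the OVA peak and -10 for the PBS peak, so the higher fold enrichment had the weaker p value. The peaks behind the Masp1 and Susd4 values had been called on these genes, but the authors had assigned them to other genes. The highest values under the names of C1qbp and C2 belonged to peaks called on their neighbours, called on Dhx33 and Zbtb12. For C1qbp, the peak that started at 70984091 on chromosome 11 had 31.4 and 18.4, and another, which was the highest of PBS lung, had 19.9 and 23.7. For C2, the values were 8.04 and 18.0. The 16 other genes had highest fold enrichments between 2.56 and 15.3 in OVA lung and between 2.40 and 15.2 in PBS lung.

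A peak in OVA lung only was found for 7 of the 33 genes with a peak in either list, or 21.2%, and in PBS lung only for 2, or 6.06%. The shares over all protein-coding genes with a peak were 7.24% and 4.86%. The OVA genes were C1s2, a protease of the C1 complex, with a fold enrichment of 15.9, C4bp, a regulator of the classical pathway, with 13.9, Colec11, a lectin, with 9.24, Cd59a, an inhibitor of the membrane attack complex, with 6.67, Itgb2, the beta chain of the complement receptor integrins, with 4.05, Cr2, a receptor of B cells for C3 fragments, with 3.89, and C9, a terminal component, with 2.28. The peaks with these values had log10 p values of -6.6 for C1s2, -3.85 for C4bp, -2.38 for Colec11 and -3.71 for Cd59a. Those for Itgb2, Cr2 and C9 were -16.4, -7.68 and -19.5. The weakest log10 p of the OVA list was -1.3. Of these genes, C1s2 alone had a peak that was both called on and assigned to it. The C9 peaks were called on Dab2, and the peaks of the other 5 genes were called on them and assigned to other genes. By called gene only, 6 genes had a peak in OVA lung alone, or 20%, beside 7.87% of all genes. By assigned gene only there were 4, or 15.4%, beside 8.73%, namely C1s2, C9, C1rl and Masp1. Under both of these counts Cpn2 and Cd59b were the 2 genes with a peak in PBS lung alone, or 6.67% and 7.69%, beside 5.2% and 5.98% of all genes. Only Cr2 and C9 had more than a single peak among the 7, with 3 and 2. The PBS genes were Cpn2, a subunit of the carboxypeptidase that inactivates anaphylatoxins, with 11.8, and Cd59b, an inhibitor of the membrane attack complex, with 2.11. The Cpn2 peak had a log10 p of -3.22. The Cd59b peak had a log10 FDR of -1.08, which does not reach an FDR of 0.05.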

How the data were processed

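The authors used FASTP to clean the reads, HISAT2 to map them to the Ensembl mouse genome, exomePeak to call peaks and ChIPseeker for annotation, and how replicates were pooled is not given in the sources used here. As scores the authors deposited log10 p and log10 FDR values from the caller. They also deposited a fold enrichment, a ratio that sets IP against input within the peak. Neither list gives reads, so no interval is given, and both columns were used as deposited. Fold enrichments of both lists are set side by side as deposited, no ratio of fold enrichments between lists was taken, and their rank is the percentile within a list.

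Deposited starts count from 0 and 1 was added. Of the peaks called on RefSeq protein-coding genes, 97.7% for OVA and 97.8% for PBS overlapped the gene's span on GRCm38, which checked the build. Peaks were shared when exonic blocks overlapped by at least 1 bp. Alternatives concerned overlap, FDR, fold enrichment, and called or assigned gene.

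Members and gene lists were chosen with earlier results of these data known. All 9 members were named, as were other complement genes with a peak in one list only, the 8 with the highest fold enrichment among those with peaks in both, and genes on which a member's peak was called or to which it was assigned. Trip10, Dhx33, Zbtb12, Dab2, Elk1, Cfp and C1rl were named outside this rule, for where their peaks lie. Overlap code was tested on simulated data. Python 3.11.15, numpy 2.4.6, pandas 2.3.3 and matplotlib 3.10.9 were used.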

Additional observations from a re-analysis of the deposited data

How the results depend on the processing

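Of 52 recomputed counts over 10 results, 47 stayed within 1.5 times the reported count. The count of OVA complement peaks without an overlapping PBS peak, 5 as reported, was 12 when start and end had to be identical, where 89.7% of all OVA peaks had no counterpart, and 3 when only the 11 peaks assigned to a member were taken, beside 19.4% of all OVA peaks. The PBS count, 0 as reported, was 9 with identical positions and 3 under a required overlap of 50% of both exonic lengths, where 89.3% and 28.3% of all PBS peaks had none. These follow from the stricter definitions, and from the called peaks that the assignment leaves out. An overlap with a peak called on the same gene, chosen after seeing the data, left 5 and 0. The 7 other complement genes with a peak in OVA lung alone became 6 by called gene and 4 by assigned gene, alternatives also chosen after seeing the data. No paired analysis was possible because each list pools the replicates of its group and its columns carry no replicate numbers, and leaving out a replicate was impossible for the same reason. The depth of single peaks is unknown, so a missing peak sets no upper limit on methylation.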

Other observations

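A few other complement genes had far lower p values in OVA lung, and they are named here because of their values. Fcna, a ficolin of macrophages, had a lowest log10 p of -91.4 in OVA lung and -3.42 in PBS lung, a ratio of 26.7 at percentile 99.6 of the genes compared. Itgax, the alpha chain of complement receptor 4, had -1950 and -105, a ratio of 18.6 at percentile 99.4, while its fold enrichments of 3.26 and 3.35 stood at percentiles 29.4 and 31.4 of their lists. Cd93 went the other way, with -4180 in OVA lung and -6650 in PBS lung, a ratio of 0.629 at percentile 12.9.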
